A study of Rattus norvegicus with 8 samples.

Results

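Zfc3h1, Ogt, Hnrnpu, Hnrnpa2b1, Rbm39 and Oip5-as1 are 6 rat genes grouped here under nuclear RNA. Where in the cell their RNAs lie was not measured. In each of these genes 1 microarray probe set read clearly less RNA after cadmium. They were chosen with this contrast in view, so the falls are the values that chose them and are described here without a test. They are 6 of 10411 genes that the array names, and all of their probe sets were taken, each alone: 14 of 15866, namely 4 for Rbm39, 3 for Hnrnpu, 2 each for Ogt, Hnrnpa2b1 and Oip5-as1, and 1 for Zfc3h1. Primary hepatocytes, the parenchymal cells of the liver, came from 4 rats and were cultured overnight. From each rat, 1 culture had cadmium chloride (a salt of a toxic metal) added at 4 µM for 3 h, and the control culture had culture medium only. Strain, sex and age of the rats were not used here. The 8 RNA samples were each hybridized to an Affymetrix RAE230A array, on which a probe set reads 1 short stretch of a transcript, and the values are linear MAS5 signals. The question in the title of the series is what a low dose and a short exposure do to gene expression.

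Many nuclear RNAs are processed in more than 1 way: introns can be kept or removed, transcripts can end at different sites, and unfinished or surplus RNA is destroyed by the nuclear exosome. Transcripts that keep an intron, of which Ogt is a known case in human and mouse cells, can stay in the nucleus. Probe sets that read different stretches of a gene can therefore report different transcript forms, and the stretch read by each probe set here was not analysed.

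Array-wide facts come first. Hepatocyte markers such as Alb were bright, with a summed signal of 7 markers between 88425 and 101745 in controls and between 92602 and 105252 after cadmium. Summed signals of macrophage markers (5 genes) ran from 1154 to 2580 in controls and from 989 to 3143 after cadmium, those of stellate cell markers (8 genes) from 1590 to 2379 and from 1203 to 1819, those of endothelial markers (4 genes) from 109 to 197 and from 46.1 to 158, those of cholangiocyte markers (4 genes) from 1812 to 2900 and from 1127 to 2699, and those of lymphocyte markers (5 genes) from 201 to 305 and from 268 to 280. The limma test described below held 7 hepatocyte, 2 macrophage, 3 stellate cell, 1 cholangiocyte, 0 endothelial and 0 lymphocyte markers, and left out dimmer ones. None of those tested passed the threshold. The stellate cell marker Reln came nearest, from a mean of 1133 to 561 (log2 change -1.09, limma adjusted p = 0.0933). No marker was at 0 on all 8 arrays, and the part of other cell types in the results was not tested. The ratio of the 3 prime to the 5 prime control probe set, a measure of RNA length, lay between 1.38 and 1.79 in controls and between 1.43 and 1.63 after cadmium for beta-actin, and between 0.958 and 1.06 against 0.972 and 1.12 for GAPDH (exact two-sided permutation p = 0.629 and 0.257 over 70 assignments of 4 against 4 arrays, adjusted p = 0.686 for both and for the dim hexokinase probe sets). The smallest p possible was 0.0286, so 1 ratio alone could not pass 0.05 after adjustment, and equal RNA length is not shown. Median array signals were 192 to 197 in controls and 180 to 186 after cadmium. They did not overlap (exact two-sided permutation p = 0.0286, unadjusted), and the median change over tested probe sets was -0.06. Cadmium and control arrays were washed in different fluidics modules, so module and treatment cannot be told apart.

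Promoter windows were searched for the short motifs of factors known to respond to metal, heat and oxidants, and the windows with a match are printed to show where it lies. RefSeq windows of 300 bases (250 before to 50 after the start, assembly GRCr8) were found for all 6 genes, 8 windows in all, since Zfc3h1 and Ogt have 2 each. Searched on both strands were the heat shock inverted repeat (GAANNTTC or TTCNNGAA), the metal response core (TGCACNC or TGCGCNC) and the antioxidant response core (TGACNNNGC). Capitals mark the matches in the windows below, which are given 5 prime to 3 prime on the strand of the gene.
Hnrnpa2b1: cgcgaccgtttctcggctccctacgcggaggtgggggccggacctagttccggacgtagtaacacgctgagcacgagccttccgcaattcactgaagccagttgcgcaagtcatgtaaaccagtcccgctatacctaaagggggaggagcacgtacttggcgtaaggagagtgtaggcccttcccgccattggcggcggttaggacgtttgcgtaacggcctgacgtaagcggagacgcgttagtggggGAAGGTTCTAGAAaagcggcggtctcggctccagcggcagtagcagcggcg
Hnrnpu: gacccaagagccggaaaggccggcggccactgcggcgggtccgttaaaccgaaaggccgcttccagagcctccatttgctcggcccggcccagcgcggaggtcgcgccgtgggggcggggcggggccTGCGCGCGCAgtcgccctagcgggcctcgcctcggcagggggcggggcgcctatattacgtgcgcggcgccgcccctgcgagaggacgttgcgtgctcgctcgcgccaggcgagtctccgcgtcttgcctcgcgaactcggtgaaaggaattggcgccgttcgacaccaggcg
Ogt: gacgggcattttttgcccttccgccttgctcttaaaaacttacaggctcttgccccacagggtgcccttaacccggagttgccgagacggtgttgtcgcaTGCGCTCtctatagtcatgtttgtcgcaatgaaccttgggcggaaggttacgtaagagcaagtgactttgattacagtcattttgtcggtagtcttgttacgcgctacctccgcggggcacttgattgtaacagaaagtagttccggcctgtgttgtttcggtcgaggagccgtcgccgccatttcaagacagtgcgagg
They lie at chr4:81875837-81876136 (minus strand), chr13:92618531-92618830 (minus strand) and chrX:70811085-70811384 (plus strand).

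In the Hnrnpa2b1 window both forms of the heat shock repeat overlap at the annotated start, at positions -1 and 5, and together make 3 alternating units. The form with 3 units, looked up after this match was seen, stands in 0.798% of 33469 windows of the same length, and the 2-unit form in 15.9%. The metal response core occurred in the Hnrnpu window, in 2 overlapping matches from positions -123 and -120, and in both overlapping Ogt windows, against 24.2% of all windows. None of the 8 windows held the antioxidant core (12.1% of all windows), and those of Zfc3h1, Rbm39 and Oip5-as1 held none of these letters. A match is a description and not a binding site.

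Each of the 6 genes had 1 probe set whose 4 cadmium signals all lay below its 4 control signals. On the scale of log2(signal + 1), the mean changes of these 6 probe sets ran from -2.00 to -0.94, with a median of -1.55, which leaves between 25.0% and 52.1% of the control signal. The other 8 probe sets changed by -0.53 to 0.37, with a median of 0.02. In the limma fit over all 9519 tested probe sets, 6 of the 14 were lower at an adjusted p under 0.05, against 1.43% of all tested probe sets. None was higher (2 at an unadjusted p under 0.05), against 2.1% of all. Of all 9519 probe sets, 1566 had an unadjusted p under 0.05 in either direction. The same 6 were lower and again none was higher with the rat as a replicate block, against 2.29% and 2.86% of all. Counted over rats, 8 of the 14 were lower with cadmium in 4 of 4 rats, against 19.7% of all. Groups that did not overlap downward were seen in 6 of 14 (7.22% of all) and upward in 1 (4.33% of all). Because the genes were chosen on this contrast, nothing is read from these shares. A smaller share of cells that hold an RNA and less of it per cell cannot be told apart in such samples.

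**Figure D1:**
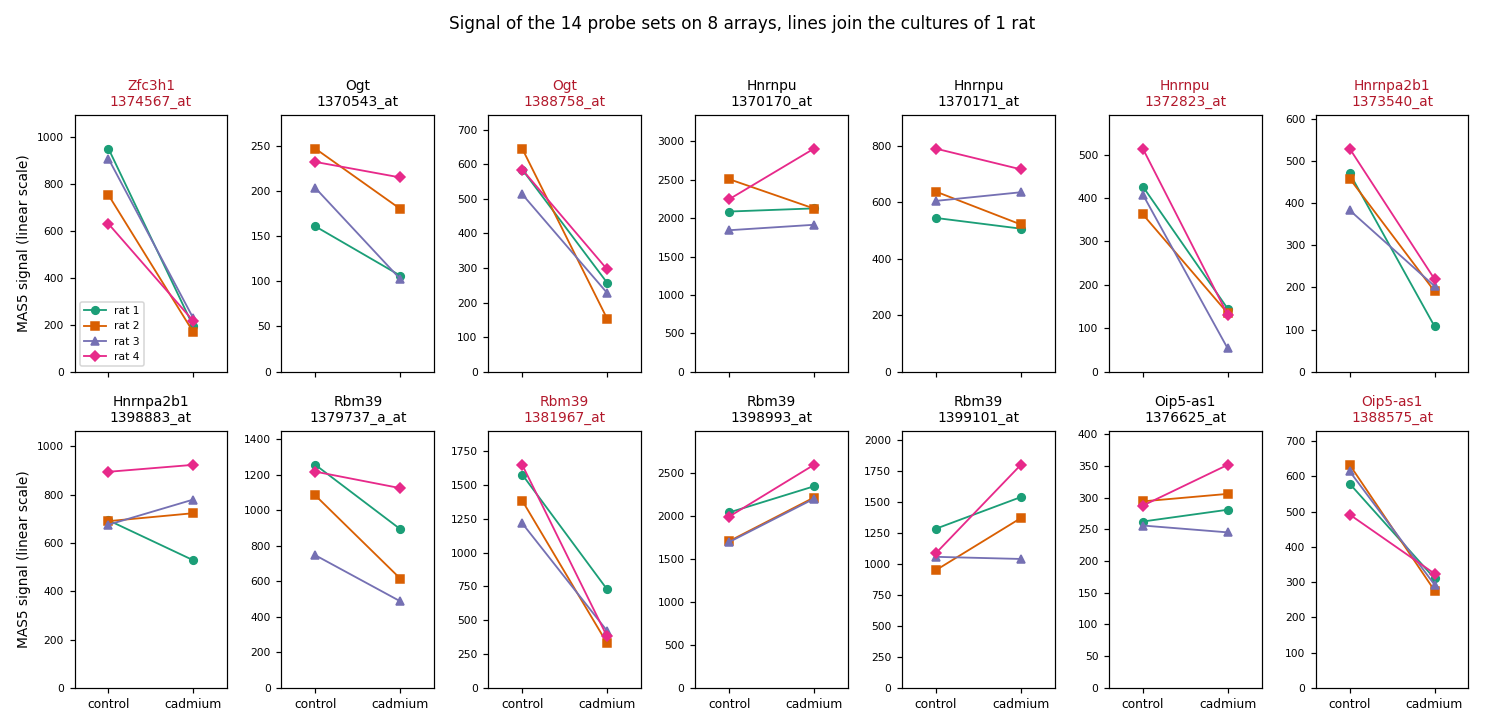
MAS5 signal (vertical axis, linear, from 0) of each of the 14 probe sets in control and cadmium cultures, with 1 marker and line per rat. Red titles mark the 6 probe sets that were lower in the array-wide fit, whose lines all fall, and black titles mark the other 8, whose groups overlap except for Rbm39 1398993_at, where cadmium lies above control.

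Zfc3h1 encodes a zinc finger protein that, in human cells, links the RNA helicase MTR4 to polyadenylated nuclear RNA and so to the exosome. Its only probe set (1374567_at) gave signals of 949, 752, 906 and 629 in the controls of rats 1 to 4 and 192, 168, 227 and 215 after cadmium. The groups did not overlap, and the control signals differed more between rats than the cadmium signals did. The change was -2.00 ± 0.16 (log2, SE, n = 4 per group), with single rats between -2.30 and -1.54. It was -1.77 in chip lot 1 (rats 3 and 4) and -2.23 in lot 2 (rats 1 and 2). With 1 probe set, a difference between stretches of this gene could not be seen.

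Ogt encodes the enzyme that attaches O-linked N-acetylglucosamine to nuclear and cytosolic proteins. Probe set 1388758_at read 585, 645, 513 and 585 in controls and 257, 154, 228 and 296 after cadmium. The groups did not overlap, and rat 2 fell most. The change was -1.35 ± 0.19, and it was -1.07 in chip lot 1 and -1.62 in lot 2. The other probe set, 1370543_at, read 161, 247, 203 and 232 in controls and 106, 180, 103 and 215 after cadmium. Here the groups overlapped, although each rat had a lower signal with cadmium, by -0.11 to -0.98 (mean -0.53 ± 0.26). Both Ogt probe sets thus had a lower signal in every rat, by different amounts, but 1370543_at did not pass the threshold (limma adjusted p = 0.355). Its cadmium signals of rats 1 and 3 lay under 118, the cutoff used to leave out dim probe sets. The difference between the 2 changes was -0.81 ± 0.60 (SD over 4 rats), from -0.19 in rat 3 to -1.61 in rat 2.

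Hnrnpu encodes a large nuclear protein, also called SAF-A, that binds both RNA and DNA. Its probe set 1372823_at read 426, 362, 408 and 514 in controls and 145, 135, 53.3 and 131 after cadmium. The cadmium signals were all below the controls, and that of rat 3 stood far below the other rats. The change was -1.96 ± 0.29, and it was -2.44 in chip lot 1 and -1.49 in lot 2. This was the only one of the 14 probe sets with a cadmium mean under 118, the cutoff used to leave out dim probe sets, so it passed through its control arrays. The other 2 Hnrnpu probe sets, 1370170_at and 1370171_at, were designed on 1 and the same sequence record. They read 1843 to 2509 and 545 to 790 in controls and 1914 to 2907 and 507 to 717 after cadmium. Their groups overlapped, and the changes were 0.05 ± 0.14 and -0.12 ± 0.15, the first of them below 0 in 4 of 22 alternative settings. In each of the 4 rats 1372823_at changed more than both, by a mean of -2.02 ± 0.79 against 1370170_at and -1.85 ± 0.81 against 1370171_at (SD).

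Hnrnpa2b1 encodes an RNA-binding protein of the hnRNP A/B class. Probe set 1373540_at read 471, 458, 383 and 529 in controls and 108, 191, 203 and 220 after cadmium. The groups did not overlap, and the cadmium culture of rat 1 was the lowest. The change was -1.39 ± 0.22, and it was -1.09 in chip lot 1 and -1.69 in lot 2. Probe set 1398883_at read 694, 690, 676 and 895 in controls and 528, 723, 780 and 923 after cadmium. These groups overlapped throughout, with means of 738.5 ± 104 and 739 ± 164 (SD) and a change of -0.02 ± 0.17, whose sign turned under quantile normalization and median centring. The difference between the 2 changes was -1.37 ± 0.26 (SD), from -1.12 to -1.73 in single rats.

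Rbm39 encodes a splicing factor related to the U2AF proteins that recognize the 3 prime splice site. It was read by 4 probe sets, of which 1 fell past the threshold, 1 had a lower and 2 a higher mean after cadmium. Probe set 1381967_at read 1577, 1385, 1217 and 1649 in controls and 728, 330, 421 and 380 after cadmium. The groups did not overlap, and rat 1 kept the most signal. The change was -1.71 ± 0.22, and it was -1.82 in chip lot 1 and -1.59 in lot 2. Probe set 1379737_a_at read 1255, 1082, 746 and 1216 in controls and 893, 615, 487 and 1124 after cadmium. Each rat was lower with cadmium, by -0.11 to -0.81, but the groups overlapped (mean -0.51 ± 0.25). With the rat as a replicate block the SE was 0.12 and the limma adjusted p 0.0539, against 0.361 without it. The 2 remaining probe sets, 1398993_at and 1399101_at, had higher means after cadmium and did not pass the threshold. Neither passed with the rat as a block (limma adjusted p = 0.0516 and 0.143). Probe set 1398993_at read 2042, 1708, 1698 and 1994 in controls and 2347, 2216, 2202 and 2597 after cadmium, a change of 0.33 ± 0.10 with no overlap. Probe set 1399101_at read 949 to 1283 in controls and 1039 to 1798 after cadmium, a change of 0.37 ± 0.16 with rat 3 at -0.02. The changes of 1381967_at and 1399101_at lay 2.08 ± 0.75 apart (SD), at least 1.37 in each rat.

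Oip5-as1, also called Cyrano, is a long noncoding RNA, which in mouse is known for bringing about the destruction of the microRNA miR-7. Probe set 1388575_at read 579, 633, 614 and 492 in controls and 310, 276, 293 and 324 after cadmium. The groups did not overlap, and the cadmium signals were close to each other. The change was -0.94 ± 0.12, the smallest of the 6 falls, and it was -0.83 in chip lot 1 and -1.05 in lot 2. Probe set 1376625_at read 262, 294, 256 and 287 in controls and 281, 306, 245 and 352 after cadmium. These groups overlapped, with a change of 0.10 ± 0.14. The difference between the changes was -1.04 ± 0.15 (SD), the most even over rats of the comparisons within a gene.

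**Figure D2:**
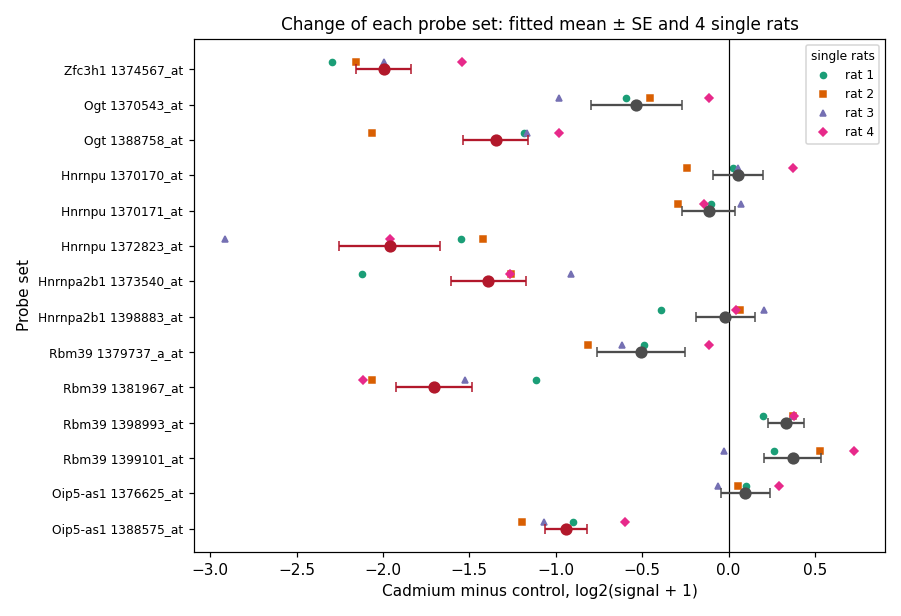
Cadmium minus control on the log2(signal + 1) scale for each probe set, as the fitted mean with its SE (large points, red where lower in the array-wide fit) and as single rats (small markers). The 6 red points lie between -2.00 and -0.94 and the 8 grey points between -0.53 and 0.37.

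Differences of this size between probe sets of a gene were uncommon among the tested probe sets, after dim ones were left out. Of 906 genes with 2 or more tested probe sets, 16 (1.77%) had changes at least 1 apart on the log2 scale, and the median distance was 0.17. Of the 5 genes here with several probe sets, 4 were among these 16: Rbm39 (2.08), Hnrnpu (2.02), Hnrnpa2b1 (1.37) and Oip5-as1 (1.04), ranked 2, 3, 5 and 15. Ogt had a distance of 0.81 and rank 30. Oip5-as1 lies at the edge: its distance was under 1 with a pseudocount of 32 (0.96), within chip lot 1 (0.95), without rat 2 (0.96), and without control replicate 3 or cadmium replicates 2 or 4 (0.97 to 0.99). That of Ogt reached 1 within chip lot 2 (1.10), without rat 3 (1.02) and without cadmium replicate 1 (1.02). With a filter of 60%, Rbm39 alone of the 5 genes kept a distance over 1, since the falling probe sets of Hnrnpu and Hnrnpa2b1 and 1 probe set each of Ogt and Oip5-as1 were left out. The highest rank belonged to Homer1 (5.24), whose probe sets all had higher means. Among the 16, a probe set that was lower at the threshold was seen in 5, the 4 named and Smad5, a transcription factor of BMP signalling (1.06). The 6 genes were chosen partly for this distance, so the ranks describe them only. The count of 16 depends on the settings: it was 226 without the filter for dim probe sets and 9 with a pseudocount of 32. A distance can only grow with more probe sets. Rbm39 had 4 and Hnrnpu 3 where most genes had 2, so their ranks are not like for like.

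**Figure D3:**
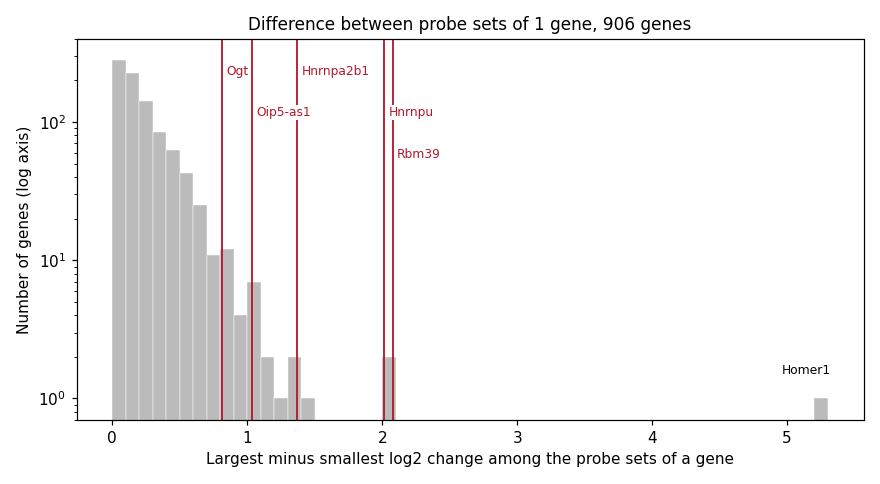
Number of genes (vertical axis, logarithmic) by the distance between the largest and the smallest log2 change among their probe sets (horizontal axis), for 906 genes. Red lines mark the 5 genes described here, of which 4 lie beyond 1, where 16 genes lie in all.

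Differences between the animals are no part of the contrast that chose the genes and could be tested. Rats 1 and 2 were on chip lot 2 and the others on lot 1, so a difference between rats can also be one between lots. None of the 14 probe sets differed between rats in the moderated F test of limma with cadmium as a term (4 at an unadjusted p under 0.05), against 1.75% of all tested probe sets at the threshold and 15.7% unadjusted. The smallest adjusted p was 0.0755, for Rbm39 1379737_a_at, whose mean log2 signal was 10.05, 9.67, 9.24 and 10.19 in rats 1 to 4. It passed without rat 4 (limma adjusted p = 0.0217). The falling probe set of Oip5-as1 was the most even, with rat means within 0.09 of each other on the log2 scale.

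Other genes of the same processes were described with 6 lists, chosen with earlier results known, reading each gene on its brightest probe set. Read in this way, Hnrnpu, Hnrnpa2b1 and Rbm39 changed by 0.05, -0.02 and 0.33, and Ogt and Oip5-as1 by -1.35 and -0.94. A fall on a dimmer probe set of a listed gene is therefore not seen in these counts. Over all 9519 tested probe sets, 1566 had an unadjusted p under 0.05 in either direction. That count pools directions and probe sets, so the unadjusted counts of the lists have no like background. Over 89 listed and tested genes, 6 rose and 1 fell at the threshold, against 2.04% and 1.31% of all 7099 tested genes, whose median change was -0.06. With the replicate block 8 rose and 1 fell, against 2.73% and 2.21% of all. In nuclear RNA decay, the process of Zfc3h1, 1 of 17 genes rose and none fell in the limma test, with a median of -0.03. At an unadjusted p under 0.05, 2 were higher and 1 lower. The gene that rose at the threshold was Rbm7, the RNA-binding subunit of the exosome targeting complex NEXT. Its signal went from 219 ± 15.0 to 477 ± 114 (SD), a log2 change of 1.09 ± 0.17 (limma adjusted p = 0.0051). None of 7 genes of O-GlcNAc cycling and hexosamine synthesis, the process of Ogt, passed in either direction in the limma test (0 unadjusted), with a median of 0.03. Its 2 brightest members were Gnpnat1, an enzyme of hexosamine synthesis (-0.21 ± 0.16), and the kinase gene Nagk (0.002 ± 0.12).

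Among 22 other genes of hnRNP and related proteins, 2 rose and none fell in the limma test (6 higher and 0 lower unadjusted). Their median was 0.09, and 3 rose with the replicate block. Tardbp, which encodes the RNA-binding protein TDP-43, rose from 816 ± 146 to 1701 ± 504 (1.03 ± 0.19, limma adjusted p = 0.0156), and Ewsr1, of the FET family of RNA-binding proteins, rose from 546 ± 36.7 to 843 ± 111 (0.62 ± 0.12, adjusted p = 0.0202). Both calls ended without control replicate 2 (adjusted p = 0.0585 and 0.0544), and that of Ewsr1 also without control replicates 1 and 4 and cadmium replicate 3 (0.0588, 0.0656 and 0.0519). These fits took no account of the pairing. With the rat as a replicate block on all 8 arrays, the limma adjusted p was 0.00093 for Tardbp and 0.0161 for Ewsr1. Of 16 factors of the branch point and 3 prime splice site, the process of Rbm39, 1 rose and none fell in the limma test (2 higher and 0 lower unadjusted), with a median of 0.06. The gene past the threshold was Sf3b1, a subunit of the U2 snRNP, at 0.45 ± 0.11 (limma adjusted p = 0.0425). That call ended when any of the 8 arrays was left out except control replicate 4 (adjusted p 0.0605 to 0.122), and without a variance trend (0.0727). A second probe set of Sf3b1 changed by 0.33 ± 0.15 (limma adjusted p = 0.318).

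Of 4 tested long noncoding RNAs, none passed in the limma test in either direction (0 unadjusted), with a median of 0.21. Gas5, a host of small nucleolar RNAs, changed by 0.21 ± 0.12 and Meg3 by -0.15 ± 0.16. Of 23 nuclear speckle and paraspeckle genes, 2 rose and 1 fell, with a median of -0.05, and 3 rose with the replicate block. At an unadjusted p under 0.05, 3 were higher and 7 lower, and the array count (1566 of 9519 probe sets) pools both directions. The splicing factor kinase gene Clk1 rose by 1.24 ± 0.18 (adjusted p = 0.00335) and the splicing regulator gene Tra2b by 0.62 ± 0.12 (adjusted p = 0.0147), the latter not without cadmium replicate 2 (limma adjusted p = 0.0512). Srsf6, an SR protein gene, fell from 1869 ± 149 to 1182 ± 110 (-0.66 ± 0.11, limma adjusted p = 0.00586). A second probe set of Srsf6 changed by -0.70 ± 0.16 (limma adjusted p = 0.0367), and one of Tra2b by 0.65 ± 0.12 (limma adjusted p = 0.0138). Without rat 2 all 7 calls in the lists ended, among them those of Srsf6, Clk1 and Rbm7 (limma adjusted p = 0.0615, 0.0648 and 0.0794). Without rat 3 that of Srsf6 ended too, and without rat 1 or 3 those of Tardbp and Sf3b1. That of Tra2b also ended without rat 1 or 4, and that of Ewsr1 without any single rat (limma adjusted p 0.0509 to 0.231 without rats 1, 3 or 4). Across the lists, 16 genes had 2 or more tested probe sets, none had changes at least 1 apart, and the largest distance was 0.55, in Hnrnpa3.

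**Figure D4:**
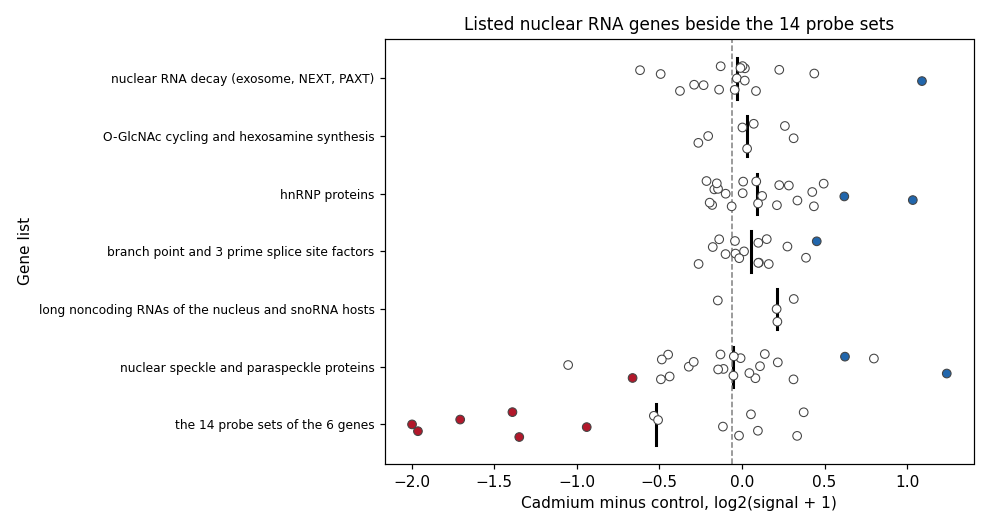
Log2 change (horizontal axis) of the tested genes of 6 lists, 1 point per gene on its brightest probe set, and of all 14 probe sets described here, dimmer ones included. Filled red points were lower and filled blue points higher at the threshold, black bars are medians, and the dashed line is the median of all 7099 genes (-0.06).

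Genes most like the falling probe sets were named by the Pearson correlation of log2 signals over the 8 arrays, as a description in which the treatment and the shared arrays enter each value. The 3 nearest genes of each of the 6 probe sets had r between 0.96 and 0.99, and all had lower means after cadmium (-0.25 to -1.16). Zfc3h1 was nearest to Eny2, a subunit of histone-modifying and mRNA export complexes (0.98), Tmem43 and Trib1, and Ogt to Gskip (0.99), Igip and Nhlrc2. Hnrnpu was nearest to Srsf6 (0.98), the histone methyltransferase gene Nsd3 and Hexim1, an inhibitor of the elongation factor P-TEFb. Hnrnpa2b1 was nearest to Acbd3 (0.98), Cdc23 and Josd1, and Rbm39 to Gpr137b (0.98), Cdc23 and Ctnnbip1, where Cdc23, a subunit of the anaphase-promoting complex, entered on 2 different probe sets. Oip5-as1 was nearest to the arginine methyltransferase gene Prmt5 (0.99), Alg8 and Erh.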

How the data were processed

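RNA of 4 control and 4 cadmium cultures, 1 of each per rat, was measured on RAE230A arrays. The deposited table holds 1 linear intensity per probe set and array, made by the authors with MAS5, per the submitters' processing notes (version not given in the sources used here). Trimmed by 2% at each end, the signals averaged about 500 on each array, so arrays had been scaled alike. Other deposited files list scanner and washing settings, per the file headers, and gave the chip lot (lot 2 for rats 1 and 2, lot 1 for the others) and the module. Symbols come from the platform annotation and were brought up to date through gene numbers in RefSeq (GRCr8): 12783 of 15866 had 1 symbol, 312 several and 2771 none here.

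Signals were used as log2(signal + 1), which understates changes of dim probe sets, and the 40% with the lowest mean were left out. Cadmium was compared with control in limma 3.58.1 (R 4.3.3) with lmFit and eBayes (variance trend), two-sided, with Benjamini-Hochberg adjustment over 9519 probe sets and a threshold of 0.05. This gave 200 higher and 136 lower, so 59.5% of calls were higher, against 69.8% after quantile normalization and 77.3% after median centring. The rat is a term in an alternative fit, so the SEs given beside the changes take no account of the pairing. Replicate numbers pair the samples, because the labels give both cultures of a number to 1 rat. Deviations from group means correlated at 0.35, 0.25, 0.47 and 0.196 within rats 1 to 4, and at most at -0.00828 between rats. Taking off group means lowers the values between rats when those within rats are positive, so the former are no separate evidence. The fits were tested on simulated data.

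The 6 genes and the lists were chosen with earlier results of these data known. Named are all their probe sets, of each list up to 3 genes past the threshold that moved alike in 4 of 4 rats (or its 2 brightest), and 3 genes nearest to each falling probe set. Precision is limited by the 8 arrays. Alternatives were other scalings, a pseudocount of 32, no filter or one of 60%, no variance trend, the rat or chip lot as a block, fits within lots, and arrays or rats left out. Fits with arrays or rats left out compared cadmium with control without the replicate block.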

Additional observations from a re-analysis of the deposited data

Results flagged for a closer look

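In 42 sets of 4 values (signals of a group, or the differences of the 4 rats, for each of the 14 probe sets), 3 held a value far from the other 3 by Dixon's criterion, and chance flags about 1 in 20 sets. The cadmium culture of rat 3 had the lowest signal of Hnrnpu 1372823_at, at 53.3, and the control culture of rat 4 had the highest signal of Hnrnpa2b1 1398883_at, at 894.6. For Rbm39 1398993_at, rat 1 had a smaller log2 difference (0.20) than the other rats (0.375 to 0.38).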

How the results depend on the processing

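The number of lower probe sets among the 14 was 6 in the fit reported and in 18 of 22 alternatives. It was 4 with a filter of 60%, which removes 2 of the 6, and 5 without rat 2, where Hnrnpa2b1 1373540_at had an adjusted p of 0.0614. Within chip lot 1 it was 2 and within lot 2 it was 4, each with 2 rats. All 6 changes kept their direction in each alternative that tested them, which the filter of 60% did not do for 2. Blocks, the variance trend and leaving off the filter do not alter the size of a change. As these falls chose the genes, their direction is described only. Leaving out single arrays gave 6 each time, and leaving out rats 5 to 6.

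Over the array, lower probe sets (136) numbered 89 after quantile normalization, 74 after median centring and 218 with the replicate block, which changed no call among the 14. Within lots 1 and 2 they numbered 7 and 19, and higher ones (200) 40 and 75. With single arrays or rats left out, lower ones ranged from 26 to 125 and higher ones from 79 to 188. Genes whose probe sets lay at least 1 apart (16) numbered 9 with a pseudocount of 32, 226 without the filter, 2 with a filter of 60%, and 28 and 25 within lots 1 and 2. Of listed genes, 6 higher and 1 lower in the fit reported, 0 and 0 passed within lot 1 and 3 and 0 within lot 2, and with arrays or rats left out 0 to 6 and 0 to 2. Probe sets of the 14 that differed between rats numbered 0 to 1 with a rat left out. Causes were not tested. The filter for dim probe sets limits Hnrnpu 1372823_at, whose cadmium mean lies under it.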
